A study of Mus musculus with 12 samples.

Results

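The genes described here belong to 9 families that were first known for steering growing axons: ephrins, Eph receptors, semaphorins, plexins, neuropilins, Slits, Robos, netrins and Unc5 receptors. Members were chosen by gene symbol alone, and 67 of the 53735 symbols in the deposited count table matched. They comprised 8 ephrins, 14 Eph receptors, 20 semaphorins, 9 plexins, 2 neuropilins, 3 Slits, 4 Robos, 3 netrins and 4 Unc5 receptors. The data were RNA-seq counts from mouse mammary epithelial cells, dissociated from the gland and sorted on the surface proteins CD24 and CD49f into basal (myoepithelial) and luminal cells. The mice were wild type (WT) or MMTVRANK, a transgenic line in which the promoter of the mouse mammary tumour virus drives Rank (Tnfrsf11a), the receptor of the cytokine Rankl, in the mammary epithelium. Each genotype and population together formed a group, 4 in all, with 3 libraries each and between 12459547 and 15069578 counts per library. Strain, age and parity are not in the labels used here, nor is it said whether the 3 libraries of a group came from separate mice, so that p-values measure the spread between libraries, which may be technical.

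These families signal at cell contacts or over short distances. Ephrins are membrane-bound ligands whose Eph receptors are tyrosine kinases, and both partners can signal into their own cell. Semaphorins act through plexins, with neuropilins as co-receptors for the secreted class 3 members. Slits bind Robo receptors, and netrins bind Dcc, neogenin and Unc5 receptors. In the mammary gland the Slit and Robo pair and the netrin and neogenin pair are known for holding the basal and luminal layers together and for limiting branching.

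Levels are given as CPM, the count of a gene scaled to a common library total after adjustment by the trimmed mean of M-values (TMM). The Rank transcript (Tnfrsf11a), read first as a check of the genotype labels, measured 73.6, 158 and 65.1 CPM in basal replicates 1 to 3 of WT and 414, 129 and 218 CPM in those of MMTVRANK. In luminal replicates it measured 6.36, 90.7 and 9.89 CPM in WT and 319, 155 and 238 CPM in MMTVRANK. The libraries labelled WT replicate 2 therefore held more Rank transcript than the other WT libraries of their population, and the basal library so labelled overlapped the MMTVRANK basal group. In these same libraries the title and the cell subtype field name opposite populations. The titles were used, and the summed CPM of 9 basal markers, 24990 in the library titled WT basal 2 and 55.5 in the library titled WT luminal 2, matched them. The library MMTVRANK luminal 3 stood apart, with 1047 CPM of 10 leukocyte markers against 125 to 158 in the other luminal libraries and with 384.5 CPM of basal markers against 35.5 to 110. Most of the 125 to 158 CPM was Lcp1, a marker of that list called higher in luminal than basal cells of both genotypes. Lcp1 measured 106 to 132 CPM in those libraries and 182 CPM in MMTVRANK luminal 3. MMTVRANK luminal 3 also held 282.7 CPM of 8 fibroblast markers against 38.8 to 157, and its 10 luminal markers summed to 6613 CPM against 10650 to 20270. Of these, Krt8, Krt18, Krt19, Esr1, Pgr, Prlr and Foxa1 were lowest in this library. The rest were not: Cd14 measured 374.5 CPM against 109 to 271 in the other luminal libraries, Kit 220 against 82.3 to 220 and Elf5 67.8 against 44.1 to 98.0. Some of the members that rest on MMTVRANK luminal 3 are also given without it. Without both WT replicate 2 libraries only Ephb2 and counts of members called are given. Because these are bulk libraries, fewer cells of a type and less RNA per cell cannot be told apart.

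Of the 67 members, 59 passed the filter on low counts and were tested, with 18236 genes tested in all. The remaining 8 (4 Eph receptors, Ntn5, Robo3, Unc5a and Unc5d) reached at most 15 counts in any library and 1.28 CPM. A member was called when its Benjamini-Hochberg adjusted p from edgeR's quasi-likelihood test, taken over all genes tested, was below 0.05. By this test the Rank transcript itself was not called between the genotypes. Its log2 fold change, MMTVRANK over WT, was 2.74 in luminal cells (SE 0.89, adjusted p = 0.224, edgeR), where the groups did not overlap. In basal cells it was 1.36 (SE 0.85, adjusted p = 0.977, edgeR), where they overlapped.

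The first comparison was between luminal and basal cells. Most of the module was carried by basal cells. The 67 members together summed to 4082, 4254 and 4435 CPM in WT basal libraries and to 1681, 1761 and 1749 CPM in WT luminal libraries, groups that were far apart. In WT cells 41 of the 59 tested members were lower in luminal cells, or 69.5%, where 20.0% of all genes tested were called lower. In the other direction 5 members were higher in luminal cells, or 8.47%, where 18% of all genes were called higher: Sema4d, Ephb6, Plxnb2, Ntn1 and Efna1. The median log2 fold change, luminal over basal, was -2.55 over the members and -0.07 over all genes. The median over the members stayed at -2.55 with Epha3, which had no count in any WT luminal library, set to its bound of at least 41.7-fold lower. That bound rests on WT basal 1, the highest of the 3 basal libraries for Epha3, and it was at least 11.3-fold without this library.

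In MMTVRANK cells 35 of 59 members (59.3%, against 17% of all genes) were lower in luminal cells and 3 were higher (5.08%, against 16.1%): Sema4d, Plxnb2 and Ntn1. The median log2 fold change was -1.94 over the members. Of the 41 members lower in WT luminal cells, 34 (82.9%) were also lower in MMTVRANK luminal cells, and these made up 97.1% of the 35. The 7 called lower in WT only were Plxnd1, Sema3b, Plxnb3, Sema7a, Epha3, Sema3a and Sema3e, and the single one called lower in MMTVRANK only was Sema4b. The test of the difference between the genotypes, given further on, called no member by edgeR, so that these unequal lists do not show a difference.

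**Figure D1:**
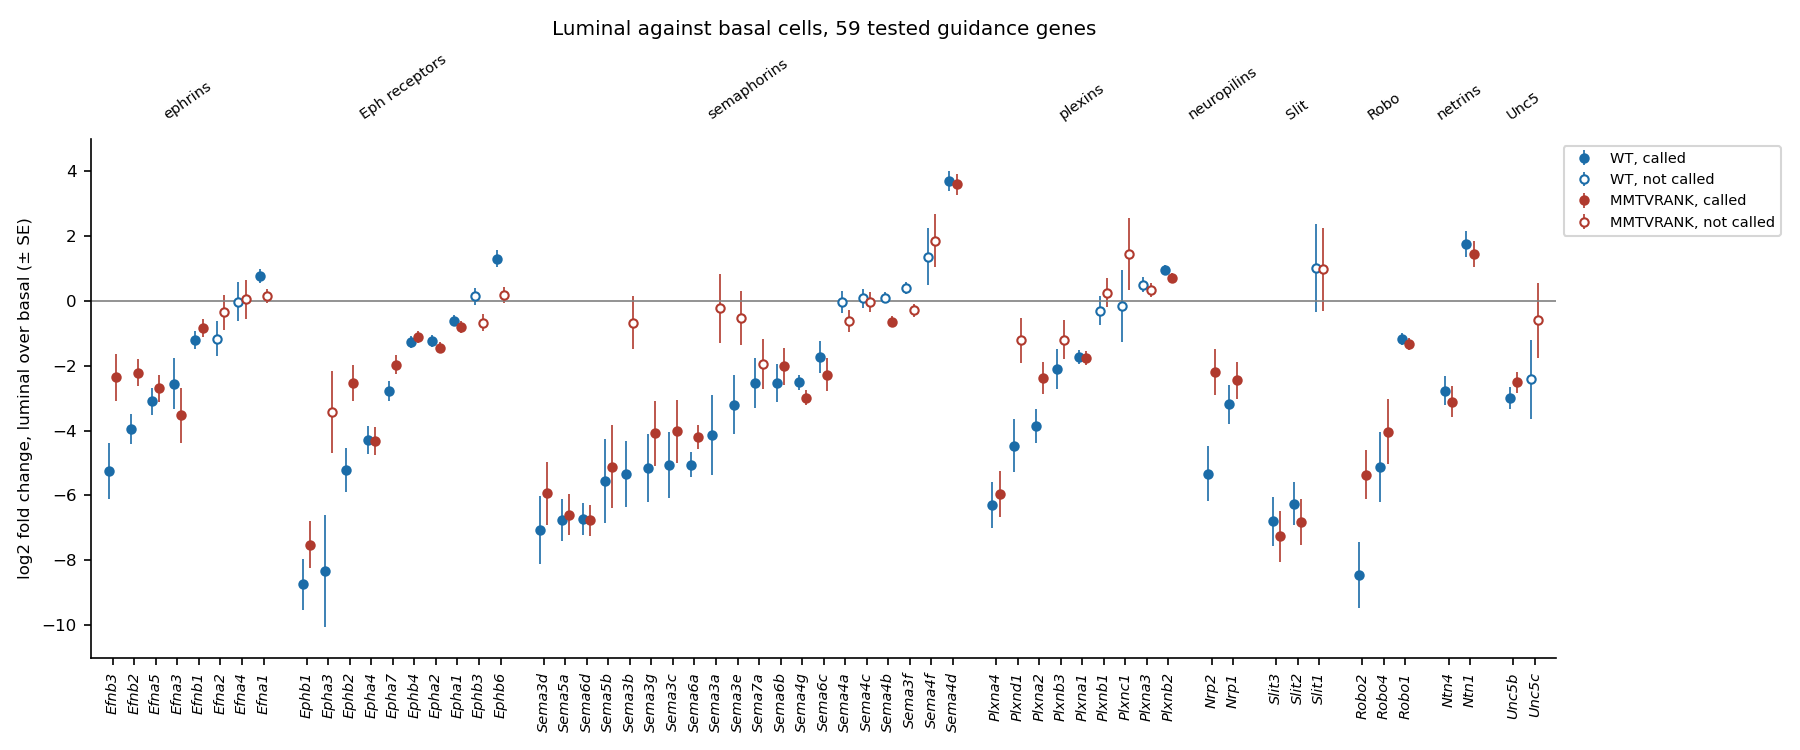
Log2 fold change of luminal over basal cells (vertical axis, ± SE from the edgeR fit) for the 59 tested members, ordered by family, in WT (blue) and MMTVRANK (red) libraries, with filled points for members called. Most points lie below 0 in both genotypes, and Sema4d (3.70 in WT), Ntn1, Ephb6, Plxnb2 and Efna1 are the called members above it. The fitted WT value of Epha3, with no count in WT luminal libraries, is no bound.

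Among the ephrins, 5 of 8 were lower in WT luminal cells and Efna1 was higher. Efnb2, a transmembrane ligand of EphB receptors, EphB4 among them, measured 125, 96.1 and 56.5 CPM in WT basal libraries and 4.11, 7.15 and 6.53 CPM in WT luminal libraries. The groups did not overlap, and the log2 fold change was -3.96 (SE 0.47, adjusted p = 5.69e-05, edgeR). Efna5, a ligand anchored in the membrane by a lipid, measured 56.1, 50.1 and 60.0 CPM in WT basal and 2.84, 6.02 and 10.4 CPM in WT luminal libraries, a log2 fold change of -3.10. Efnb3, the third transmembrane ephrin, was scarcer, at 7.49, 4.31 and 2.64 CPM against 0.15, 0.21 and 0 CPM, with a log2 fold change of -5.25. Efna1, a ligand of EphA2, had the opposite order, with 35.7, 31.2 and 25.8 CPM in WT basal and 66.4, 55.3 and 35.4 CPM in WT luminal libraries. Its groups overlapped narrowly, the log2 fold change was 0.76 (SE 0.22, adjusted p = 0.0177, edgeR), and the call was lost in 5 of the alternative analyses, among them those without WT luminal 1 (0.56), without WT luminal 2 (0.73) and without WT basal 3 (0.65). Per kilobase of exon, Efna1 was the leading ephrin in all groups, at 16.9 CPM per kb in WT basal and 28.6 CPM per kb in WT luminal cells.

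Of the 10 tested Eph receptors, 8 were lower in WT luminal cells, Ephb6 was higher and Ephb3 was not called. Epha2 was the most abundant per length in WT basal cells (56.1 CPM per kb). It measured 250, 299 and 238 CPM in WT basal and 99.0, 114 and 122 CPM in WT luminal libraries, so that it fell by 1.23 on the log2 scale and remained well expressed in both layers. Ephb4, the receptor that prefers ephrin-B2, measured 133, 106 and 122 CPM against 49.1, 49.6 and 51.3 CPM, a log2 fold change of -1.26. Epha4, which can bind both classes of ephrin, measured 84.0, 160 and 129 CPM against 4.19, 6.02 and 8.69 CPM, and its log2 fold change was -4.30. Epha7 measured 28.7, 47.0 and 37.6 CPM against 3.74, 6.73 and 5.96 CPM, a log2 fold change of -2.78. In MMTVRANK cells the corresponding log2 fold changes were -1.44 for Epha2, -1.11 for Ephb4, -4.31 for Epha4 and -1.97 for Epha7.

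The EphB receptors differed widely among themselves. Ephb1 was close to absent from luminal cells, at 41.9, 26.9 and 88.3 CPM in WT basal libraries and 0, 0 and 0.32 CPM in WT luminal libraries, with a fitted log2 fold change of -8.74. The luminal level of Ephb1 rests on 5 counts in WT luminal 3. Without that library both remaining WT luminal libraries are at 0, and the fitted value, -12.5, is then no bound. Ephb2 measured 11.9, 27.0 and 30.7 CPM in WT basal and 0.15, 0.78 and 0.89 CPM in WT luminal libraries, -5.22 on the log2 scale (SE 0.67, adjusted p = 0.000105, edgeR). Ephb6, whose kinase domain is inactive, measured 48.4, 38.6 and 47.6 CPM in WT basal and 156, 87.1 and 89.6 CPM in WT luminal libraries. It was higher in WT luminal cells by 1.30 on the log2 scale (SE 0.26, adjusted p = 0.00168, edgeR), and had 41.3, 23.1 and 23.7 CPM per kb in WT luminal libraries beside 21.2, 24.5 and 26.2 CPM per kb for Epha2. Ephb6 was above Epha2 only in WT luminal 1 of these 3 libraries. In MMTVRANK cells it was not called between the populations, with a log2 fold change of 0.18.

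Ephb2 and Ephb6 also come first in the luminal genotype comparison given further on, with Ephb1 as the basal receptor that stayed near 0, and the 250 bases before their RefSeq start (build GRCm38.p6, written 5′ to 3′ on the strand of the gene) are shown for that reason. Ephb1 lies on the minus strand at chr9:102354694-102354943, Ephb2 on the minus strand at chr4:136836013-136836262 and Ephb6 on the plus strand at chr6:41605261-41605510. Capitals mark matches to the kappa B motif, the site class of NF-kB, which Rank activates; both strands were searched.
Ephb1: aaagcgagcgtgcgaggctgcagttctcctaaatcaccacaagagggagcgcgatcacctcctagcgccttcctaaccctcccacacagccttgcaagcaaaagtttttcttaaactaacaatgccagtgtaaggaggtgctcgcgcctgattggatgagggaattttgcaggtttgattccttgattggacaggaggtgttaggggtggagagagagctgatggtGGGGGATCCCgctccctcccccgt
Ephb2: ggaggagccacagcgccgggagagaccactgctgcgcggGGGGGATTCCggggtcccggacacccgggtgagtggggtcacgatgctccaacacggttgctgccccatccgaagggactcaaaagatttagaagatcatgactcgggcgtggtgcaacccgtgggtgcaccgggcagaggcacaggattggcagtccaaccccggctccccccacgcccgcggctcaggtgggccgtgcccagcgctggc
Ephb6: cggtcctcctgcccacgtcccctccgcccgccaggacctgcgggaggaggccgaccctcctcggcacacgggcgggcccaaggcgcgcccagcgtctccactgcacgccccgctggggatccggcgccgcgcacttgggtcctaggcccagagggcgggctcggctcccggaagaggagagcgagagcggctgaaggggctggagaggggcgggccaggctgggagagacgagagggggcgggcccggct
The Ephb1 window held a match starting 24 bases before the RefSeq start, the Ephb2 window held a match starting 211 bases before it, and the Ephb6 window held none. The 3 windows were 54.0%, 68.4% and 76.8% G and C. A kappa B match was found in 7.25% of 32851 promoter windows of the same length and in 5 of 74 windows (6.76%) of the 58 members in the RefSeq table. The AP-1 motif TGANTCA was found in 6.75% of all windows and in 4.05% of the members' windows. A match is a string of letters in the window and not a measured site.

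The semaphorins had the highest summed level of the families in WT basal cells and came second to the plexins in WT luminal cells, with 1564, 1900 and 1776 CPM in WT basal and 409, 488 and 454 CPM in WT luminal libraries. Of the 20, 14 were lower in WT luminal cells, 5 were not called and Sema4d was higher. Sema6d, a transmembrane semaphorin, measured 274, 333 and 318 CPM in WT basal and 1.35, 2.34 and 4.95 CPM in WT luminal libraries, -6.73 on the log2 scale (SE 0.49, adjusted p = 2.25e-06, edgeR). Sema6a, another class 6 member, measured 213, 251 and 217 CPM against 3.29, 8.14 and 9.01 CPM, a log2 fold change of -5.05. Sema4g measured 28.6, 20.5 and 19.4 CPM against 3.89, 3.68 and 4.44 CPM, with a log2 fold change of -2.51. These 3 members kept wide gaps between the layers in MMTVRANK cells too, with log2 fold changes of -6.77, -4.21 and -2.99.

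Sema3c, a secreted class 3 semaphorin, was the most abundant semaphorin per length in WT basal cells, at 60.7 CPM per kb. It measured 367, 554 and 380 CPM in WT basal and 2.32, 4.60 and 31.8 CPM in WT luminal libraries, and its log2 fold change was -5.06 (SE 1.03, adjusted p = 0.00284, edgeR). The luminal libraries differed widely among themselves, with WT luminal 3 the highest. Sema7a, anchored in the membrane by a lipid and a ligand of integrins and plexin C1, was scarcer, at 10.2, 3.45 and 15.3 CPM against 0.60, 2.83 and 1.52 CPM. Its log2 fold change of -2.54 (adjusted p = 0.0221, edgeR) was no longer called without WT basal 3 (-2.03), without WT luminal 1 (-2.13) or without WT luminal 3 (-2.48).

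Sema4d, the transmembrane ligand of plexin B1, was the only semaphorin called higher in luminal cells, in WT and in MMTVRANK. Per length it came second to Sema4c in WT luminal cells, at 9.97 against 45.4 CPM per kb. Sema4c had a similar level in WT basal cells (43.0 CPM per kb). Sema4d measured 5.63, 5.82 and 6.23 CPM in WT basal and 92.4, 66.2 and 71.1 CPM in WT luminal libraries. In MMTVRANK libraries it measured 5.59, 2.10 and 5.79 CPM in basal and 53.9, 46.4 and 63.2 CPM in luminal cells. In both genotypes the luminal libraries were all far above the basal ones, and the log2 fold changes were 3.70 (SE 0.32, adjusted p = 4.66e-06, edgeR) and 3.59 (SE 0.32).

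Its receptors were present in both layers. Plxnb2, which also binds class 4 semaphorins, was the leading plexin per length in all 4 groups (31.7 CPM per kb in WT basal and 61.0 CPM per kb in WT luminal cells). It measured 223, 275 and 236 CPM in WT basal and 508, 472 and 432 CPM in WT luminal libraries, higher by 0.94 on the log2 scale (SE 0.15, adjusted p = 0.000444, edgeR). Plxnb1 measured 123, 108 and 143 CPM against 51.5, 121 and 132 CPM, groups that overlapped, and was not called (-0.30).

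The class A plexins, which transduce class 3 signals with neuropilins and class 6 signals without them, were lower in luminal cells with the exception of Plxna3, which was not called (0.50). Plxna1 measured 248, 219 and 218 CPM in WT basal and 72.8, 61.3 and 73.4 CPM in WT luminal libraries, a log2 fold change of -1.72. The counting used no strand option, and 10.7% of the exon length of Plxna1 is overlapped by a gene model on the other strand, whose reads cannot be told apart. Plxna2 measured 47.2, 85.3 and 68.0 CPM against 2.84, 5.88 and 5.01 CPM (log2 fold change -3.87), and Plxna4 measured 52.0, 28.9 and 93.6 CPM against 0.67, 0.50 and 1.01 CPM (log2 fold change -6.29). Plxnd1, the receptor of Sema3e, measured 55.0, 37.2 and 45.4 CPM against 1.27, 2.55 and 2.35 CPM, a log2 fold change of -4.47.

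Both neuropilins were lower in luminal cells. Nrp1, which is also a co-receptor of VEGF, measured 41.5, 14.2 and 51.3 CPM in WT basal and 3.67, 3.47 and 4.57 CPM in WT luminal libraries (log2 fold change -3.19). Nrp2 measured 83.7, 57.5 and 94.1 CPM against 1.12, 1.27 and 3.36 CPM (log2 fold change -5.33). Endothelial cells are known for Nrp1 and for Robo4, and 8 of 9 endothelial markers were also called lower in WT luminal cells, with von Willebrand factor in the opposite direction. Cdh5, a defining endothelial marker, measured 65.9, 38.6 and 91.4 CPM in WT basal libraries and 2.09, 0.57 and 5.14 CPM in WT luminal libraries, so that WT basal 2 was the lowest basal library for Cdh5, for Nrp1 and for Robo4 (14.3, 5.03 and 16.3 CPM). The sum of the 9 markers, 130 to 279 CPM in WT basal and 107 to 247 CPM in WT luminal libraries, overlapped. Without von Willebrand factor the other 8 summed to 118 to 269 CPM in WT basal and 7.22 to 14.4 CPM in WT luminal libraries, with no overlap, a sum added after the values had been seen. WT basal 2 was also the lowest WT basal library for other members, among them Ephb1, Plxna4 and Slit2, but not for all, as Sema6d and Robo1 were lowest in WT basal 1. These examples were picked after their values were seen. The part of endothelial cells in the results of Nrp1, Nrp2, Robo4 and the other members was not tested.

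Of the 9 families the Slits had the lowest median log2 fold change in WT cells, -6.25. Slit2 measured 172, 84.1 and 222 CPM in WT basal and 0.90, 1.98 and 3.30 CPM in WT luminal libraries, -6.25 on the log2 scale (SE 0.67, adjusted p = 4.21e-05, edgeR). Slit3 measured 116, 101 and 135 CPM against 0.52, 0.71 and 1.84 CPM, a log2 fold change of -6.80. Per length Slit3 was the higher of the pair in WT basal cells, at 19.3 against 6.27 CPM per kb. Slit1 was near the limit of detection throughout, with at most 1.47 CPM in any library, and was not called. In MMTVRANK cells the differences were -6.83 for Slit2 and -7.26 for Slit3. The 8 fibroblast markers, all called lower in WT luminal cells, summed to 3239, 600 and 332 CPM in WT basal and to 157, 38.8 and 140 CPM in WT luminal libraries. In MMTVRANK libraries they summed to 704, 552 and 714 CPM in basal and 119, 80.1 and 282.7 CPM in luminal cells. Their part in the Slit results was not tested.

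Among the Robo receptors, Robo1 was the one shared by the layers. It measured 103, 148 and 150 CPM in WT basal and 55.6, 63.3 and 58.4 CPM in WT luminal libraries, so that it fell by 1.18 on the log2 scale (SE 0.18, adjusted p = 0.000327, edgeR), and it led its family per length in both (17.7 and 7.81 CPM per kb). Robo2 was close to absent from luminal cells, at 22.6, 44.2 and 39.7 CPM against 0.22, 0.07 and 0 CPM, with a log2 fold change of -8.44. Robo4, the endothelial member, had a log2 fold change of -5.13. All 3 tested Robos were also lower in MMTVRANK luminal cells (-1.34, -5.36 and -4.03).

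The netrins divided between the layers. Ntn1 was higher in WT luminal cells, at 29.8, 33.3 and 76.2 CPM against 18.1, 8.05 and 15.3 CPM in WT basal libraries, by 1.75 on the log2 scale (SE 0.40, adjusted p = 0.00424, edgeR). Ntn4, a netrin of basement membranes, was the opposite, at 109, 27.4 and 70.7 CPM in WT basal and 10.5, 12.8 and 7.17 CPM in WT luminal libraries, a log2 fold change of -2.77. The same order held in MMTVRANK cells, with log2 fold changes of 1.45 for Ntn1 and -3.11 for Ntn4. Of the netrin receptors, Unc5b measured 34.4, 43.0 and 35.1 CPM in WT basal against 4.71, 4.53 and 4.95 CPM in WT luminal libraries (log2 fold change -2.99). Neogenin (Neo1), a receptor outside the 9 families, measured 147, 197 and 224 CPM against 51.6, 56.9 and 59.8 CPM, a log2 fold change of -1.76. Dcc had no count in 11 of the 12 libraries. The netrin with the higher luminal level and its receptors Unc5b and Neo1 thus had their higher levels in different layers.

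**Figure D2:**
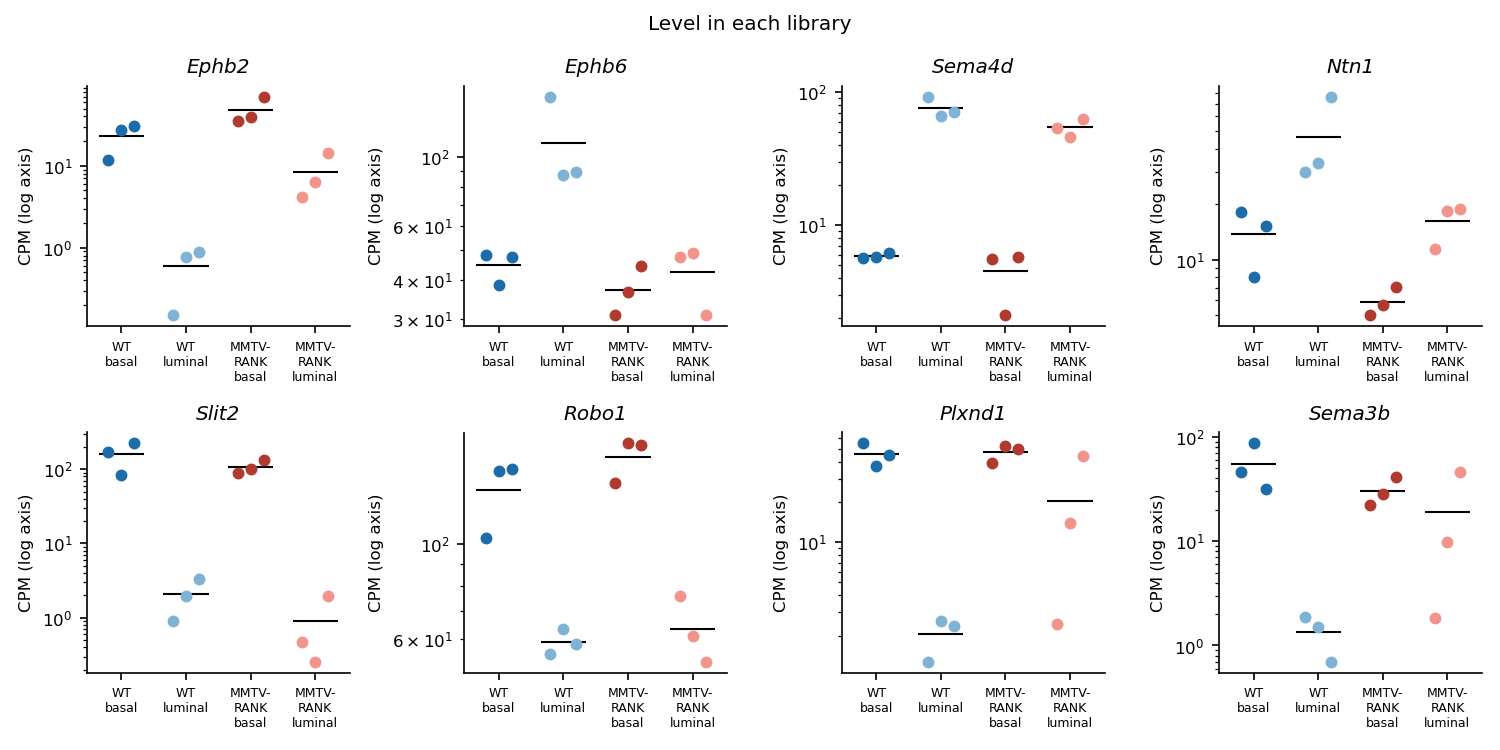
CPM (log axis) of 8 members in each of the 12 libraries, by group, with a line at the group mean. Sema4d and Ntn1 are higher in luminal cells, and Slit2 and Robo1 are higher in basal cells. The mean of Ephb2 in MMTVRANK luminal cells lies between the WT luminal and WT basal means, with MMTVRANK luminal 3 (14.4 CPM) above WT basal 1 (11.9 CPM). Plxnd1 and Sema3b reach basal levels in MMTVRANK luminal 3.

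The second comparison was between MMTVRANK and WT luminal cells, which asks what the transgene changes in the luminal layer. A single member was called in the fit without a replicate block: Ephb2, a receptor of the transmembrane ephrins, was higher in MMTVRANK luminal cells. It measured 0.15, 0.78 and 0.89 CPM in WT luminal and 4.21, 6.32 and 14.4 CPM in MMTVRANK luminal libraries, groups that did not overlap. The log2 fold change was 3.74 (SE 0.65, adjusted p = 0.0457, edgeR), about 13.4-fold, and the 3 MMTVRANK values were 8.74, 13.1 and 29.9% of the mean of MMTVRANK basal cells. The 1 of 59 members called higher (1.69%) stands beside 0.0932% of all genes tested, and the 0 called lower beside 0.159%. The median log2 fold change was 0.23 over the members and 0.03 over all genes. The WT luminal libraries enter this comparison and the one between WT populations, so that the values of a member in both are not independent.

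The call of Ephb2 lay close to the threshold. The same-numbered luminal libraries deviated together, and with the replicate number as a block 2 members were called, Ephb2 (3.73, adjusted p = 0.00593, edgeR) and Ephb6 (-1.36, adjusted p = 0.047). Without the libraries labelled WT replicate 2 no member was called and Ephb2 stood at 3.94 (adjusted p = 0.0917, edgeR), and without MMTVRANK luminal 3 it stood at 3.05 (adjusted p = 0.0989). The call was lost in 14 alternative analyses, 10 of which left out 1 library. The log2 fold change ranged from 3.05 to 4.08 over all alternatives, and its adjusted p from 2.49e-18 (no low count filter) to 0.218 (limma-voom).

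The members next in order were not called in the fit without the replicate block. Ephb6 measured 156, 87.1 and 89.6 CPM in WT luminal and 47.4, 49.1 and 30.9 CPM in MMTVRANK luminal libraries. Its groups did not overlap, with -1.38 on the log2 scale (SE 0.26, adjusted p = 0.052, edgeR), and the MMTVRANK luminal libraries had about the level of the basal libraries (31.0 to 48.4 CPM in both genotypes). Epha7 measured 3.74, 6.73 and 5.96 CPM in WT and 18.4, 10.3 and 11.2 CPM in MMTVRANK luminal libraries, with a log2 fold change of 1.28 (adjusted p = 0.0999). Sema3f, a secreted ligand of neuropilin 2, measured 38.6, 40.9 and 30.6 CPM in WT and 23.7, 19.5 and 19.3 CPM in MMTVRANK luminal libraries, with a log2 fold change of -0.82 (adjusted p = 0.103, edgeR).

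A count of the members whose groups did not overlap gave 10 with MMTVRANK above WT, or 10 of 59 where 10.1% of all genes had that order, and 9 with WT above, where 6.84% of all genes did. An unadjusted p under 0.05 was found for 19 of 59 members and for 12% of all genes tested. DESeq2 called 13 of the 59 members, 9 higher, where it called 2.66% of all genes higher, and 4 lower, where it called 1.73% lower. They were Ephb2, Nrp2, Epha7, Plxnd1, Efnb2, Sema3b, Efnb3, Robo2 and Sema6a on the higher side and Ephb6, Sema4b, Sema3f and Ntn1 on the lower side. limma-voom called none.

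Several members with large positive values rested on MMTVRANK luminal 3. Plxnd1 measured 1.27, 2.55 and 2.35 CPM in WT and 2.45, 13.9 and 44.3 CPM in MMTVRANK luminal libraries, with a log2 fold change of 3.29 (adjusted p = 0.11, edgeR) that became 1.95 without this library. Nrp2 measured 1.12, 1.27 and 3.36 CPM in WT and 5.23, 4.40 and 37.3 CPM in MMTVRANK luminal libraries, 3.01 with and 1.27 without it. Sema3b, a secreted semaphorin, measured 1.87, 1.49 and 0.70 CPM against 1.83, 9.89 and 45.7 CPM, 3.83 with and 2.08 without it. Efnb2 measured 4.11, 7.15 and 6.53 CPM against 11.6, 13.6 and 32.2 CPM, 1.69 with and 1.05 without it. Other members, among them Robo2, Plxna2 and Sema3a, were also highest in MMTVRANK luminal 3 of all luminal libraries, and their values without it are not given. Robo2 measured 0.22, 0.07 and 0 CPM in WT and 0.27, 1.09 and 3.56 CPM in MMTVRANK luminal libraries. The median over the members was -0.09 without MMTVRANK luminal 3.

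This library also held the most basal, leukocyte and fibroblast marker RNA of the luminal libraries, as given above. Its sum of luminal markers was the lowest of them, though Cd14, Kit and Elf5 were not low. The level of each gene in each luminal library was therefore also expressed as a percent of its mean in basal cells of the same genotype, a measure chosen after the data had been seen. In MMTVRANK luminal 3 the 9 basal markers had a median of 0.975% and a highest value of 7.68%. The 41 members lower in WT luminal cells had a median of 22.8% there, with 29.9% for Ephb2, 52.3% for Nrp2, 93.7% for Plxnd1 and 150% for Sema3b. Other members were low in this library: Sema5a stood at 2.02%, Slit2 at 1.86% and Slit3 at 1.61%. In WT luminal libraries 1 to 3 the medians were 3.42, 5.56 and 7.35% for the 41 members and 0.101, 0.252 and 0.469% for the basal markers. The 41 members were chosen for a low WT luminal level in these same data, which favours a higher percent in MMTVRANK libraries. Some of them were only moderately lower, such as Epha1 (65.6% as the WT luminal mean) and Robo1 (44.3%), where the highest basal marker stood at 2.18%. The members and the basal markers were thus not matched in WT cells. MMTVRANK luminal 1 held 125 CPM of leukocyte markers, of which 120 CPM was Lcp1. In it the basal markers had a median of 0.37% and a highest value of 0.697%, and Ephb2 stood at 8.74%. The part of basal cells, leukocytes and fibroblasts in these values was not tested.

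**Figure D3:**
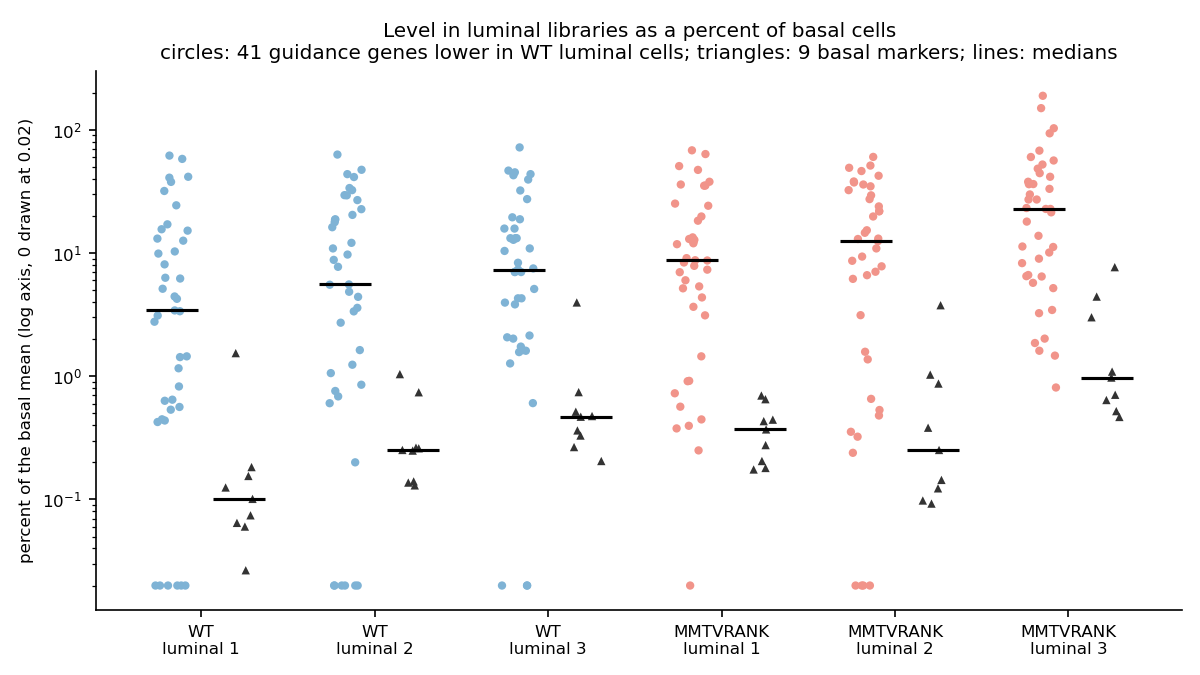
Level in each luminal library as a percent of the basal mean of the same genotype (log axis, with 0 drawn at 0.02), for the 41 members lower in WT luminal cells (circles) and 9 basal markers (triangles), with lines at the medians. The members were chosen for a low WT luminal level; their medians run from 3.42 to 7.35% in WT and 8.70, 12.5 and 22.8% in MMTVRANK libraries, and the basal markers' medians stay below 1% in all 6.

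Epha2 and Robo1 were not called between luminal cells of the genotypes. Epha2 measured 99.0, 114 and 122 CPM in WT and 96.6, 88.8 and 96.7 CPM in MMTVRANK luminal libraries (log2 fold change -0.25), and Robo1 measured 55.6, 63.3 and 58.4 CPM against 75.7, 61.0 and 53.2 CPM (0.10). Ephb4 (0.20), Plxnb1 (0.54), Unc5b (0.24), Sema7a (0.23) and Nrp1 (0.50) were not called, nor were Efna1 (-0.37), Sema4d (-0.49) and Slit3 (-0.57). Larger values that were not called either were those of Sema3c (1.44), Slit2 (-1.16) and Ntn4 (-1.06). Sema3c differed between libraries of the same group, with 5.23, 62.4 and 38.1 CPM in MMTVRANK luminal cells, and its value ran from 0.71 without MMTVRANK luminal 2 to 3.30 without WT luminal 3. For Slit2 the MMTVRANK luminal libraries held 0.48, 0.26 and 1.99 CPM, which overlapped the 0.90 to 3.30 CPM of WT. Its value ran from -2.53 without MMTVRANK luminal 3 to -0.68 without WT luminal 3, and was -0.76 without MMTVRANK luminal 2.

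The third comparison was between MMTVRANK and WT basal cells. No member of the 59 was called by edgeR, where 0.00548% of all genes were called, a single gene. The Rank transcript was not called here either, as given above. An unadjusted p under 0.05 was found for 1 member (5.41% of all genes), and DESeq2 and limma-voom called 0 members. That member was Ntn1, at 18.1, 8.05 and 15.3 CPM in WT basal and 4.99, 5.64 and 7.12 CPM in MMTVRANK basal libraries. The groups did not overlap, and the log2 fold change was -1.22 (SE 0.40, unadjusted p = 0.00989, adjusted p = 0.738, edgeR). In luminal cells Ntn1 also had a lower mean in MMTVRANK libraries, at 29.8, 33.3 and 76.2 against 11.3, 18.4 and 18.8 CPM (log2 fold change -1.52, adjusted p = 0.128), with no overlap between the groups.

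The other members with the smallest p in basal cells were Plxnb3, Ephb2 and Sema4g. Ephb2 measured 11.9, 27.0 and 30.7 CPM in WT and 35.7, 39.5 and 69.4 CPM in MMTVRANK basal libraries, with 1.05 on the log2 scale (SE 0.53, adjusted p = 0.914, edgeR) and no overlap. MMTVRANK basal 3, the highest of these libraries for Ephb2, held 219.6 CPM of the leukocyte markers against 19.6 to 51.5 CPM in the other basal libraries. The part of leukocytes in the basal values was not tested. Plxnb3 measured 6.10, 3.16 and 4.61 CPM against 1.96, 2.19 and 1.64 CPM (-1.26). Sema4g measured 28.6, 20.5 and 19.4 CPM against 28.2, 28.7 and 31.3 CPM (0.37), groups that overlapped. The groups did not overlap for 6 members with MMTVRANK above, where 6.62% of all genes had that order, and for 2 members with WT above, where 4.49% did. The median log2 fold change was -0.09 over the members and 0.00 over all genes.

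**Figure D4:**
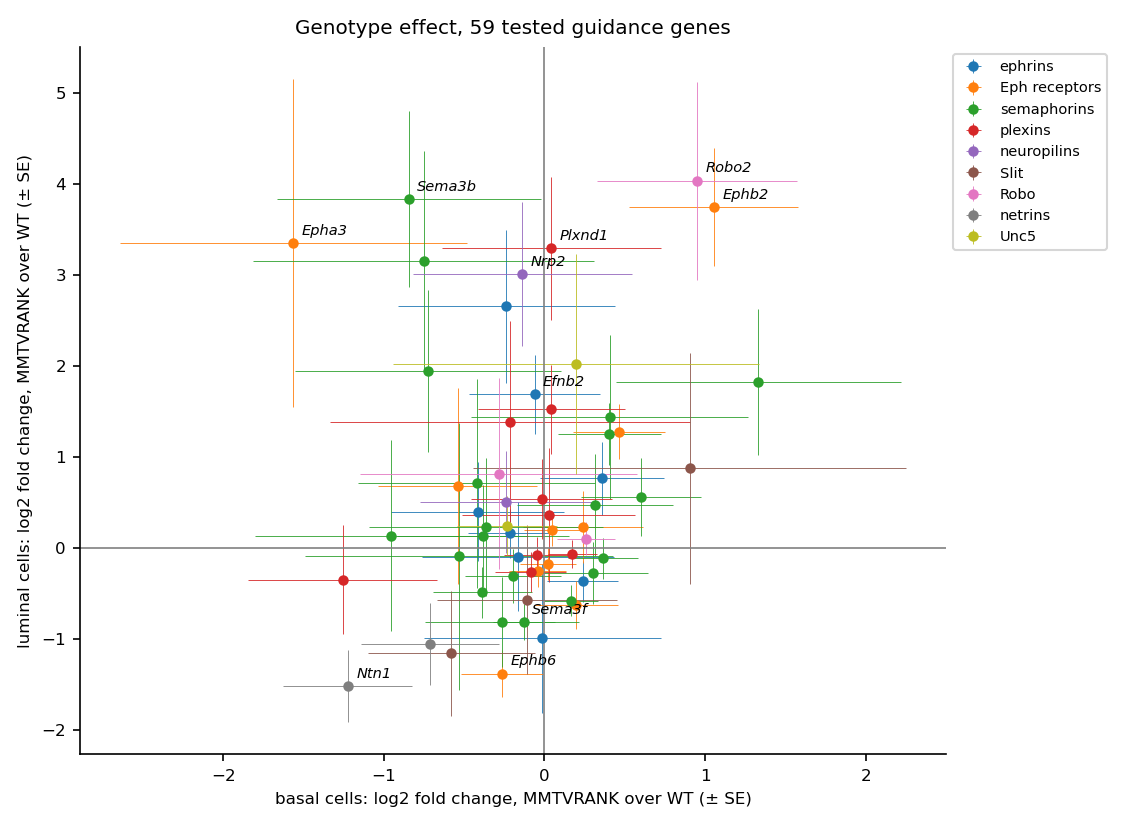
Log2 fold change of MMTVRANK over WT in basal cells (horizontal axis) and luminal cells (vertical axis) for the 59 tested members, coloured by family, with ± SE from the edgeR fit. Values reach 4.04 in luminal cells (Robo2) with wide errors, Ephb2 (3.74) is the only member called in either comparison, and Ntn1 and Ephb6 lie lowest in luminal cells.

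The last test asked whether the genotype difference was unequal in the layers. The difference of the luminal and basal genotype effects was called for no member by edgeR, where 0.00548% of all genes were called. An unadjusted p under 0.05 was found for 15 of 59 members and 7.73% of all genes, DESeq2 called 1 member, Sema3b, and 0.713% of all genes, and limma-voom called 0. The members with the smallest p were Sema3b, with a difference of 4.68 on the log2 scale (SE 1.26, adjusted p = 0.415, edgeR), Ephb2 (2.69, SE 0.82, adjusted p = 0.484), Ephb6 (-1.12, SE 0.36, adjusted p = 0.509) and Sema4b (-0.75, SE 0.24, adjusted p = 0.509). Without MMTVRANK luminal 3 the difference was 2.96 for Sema3b (adjusted p = 0.746, edgeR) and 2.03 for Ephb2 (adjusted p = 0.852). The median difference was 0.40 over the members and 0.05 over all genes, and over the members it was -0.026 without that library. Sema4b, a transmembrane semaphorin, measured 44.5, 57.4 and 39.1 CPM in basal and 47.3, 57.9 and 46.1 CPM in luminal libraries of WT, and 53.8, 49.6 and 54.9 CPM in basal and 32.3, 35.6 and 33.3 CPM in luminal libraries of MMTVRANK. Its MMTVRANK luminal libraries lay below the other 9.

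Of 74 partners and effectors of these families outside the 9, such as co-receptors and collapsin response mediators, 72 were tested. Between the WT populations 14 were higher (19.4%, against 18% of all genes) and 29 lower in luminal cells (40.3%, against 20.0%), with a median log2 fold change of -0.43, closer to the -0.07 of all genes than to the -2.55 of the members. Between the MMTVRANK populations 13 were higher (18.1%, against 16.1%) and 30 were lower (41.7%, against 17%). Between the genotypes edgeR called 0 of the 72 in luminal cells, DESeq2 called 4 and limma-voom 0, and 15 had an unadjusted p under 0.05 (20.8%, against 12% of all genes). In basal cells the 3 tools called 0, and 4 had an unadjusted p under 0.05 (5.56%, against 5.41%). With no low count filter edgeR called 12 of 74 partners in luminal cells and 1 in basal cells. An example lower in WT luminal cells was Dpysl3, a collapsin response mediator (mean 305 CPM in WT basal and 1.88 CPM in WT luminal cells, log2 fold change -7.33). An example higher in WT luminal cells was Adam10, a protease that cleaves ephrins (120 against 561 CPM, log2 fold change 2.22).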

How the data were processed

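Counts per gene were deposited by the authors as 1 table of 12 libraries. Reads were aligned with STAR 2.6.1b and counted with featureCounts of Subread 1.5 on GRCm38.p6, per the submitters' processing notes. The version was 1.5.2 with GENCODE M17 and no strand option, per the file headers, although the library kit is stranded, per the labels' protocols. The deposited exon length, a column of the authors' table with another unit than the counts, gave CPM per kb. A count of 10 corresponded to 0.728 CPM at the median library total, so that members below this level are imprecise. The table's counts were fitted with edgeR 4.0.16 (R 4.3.3) with 4 groups sharing 1 spread, a count minimum of 10 (filterByExpr), TMM scaling, robust quasi-likelihood F tests and Benjamini-Hochberg adjustment, and the code was tested on simulated data. SE is the log2 fold change divided by the root of F.

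The members, marker lists, partner list and alternatives were chosen with earlier results of these data known. Values per library were given for members called in a genotype test, the 4 smallest p of each genotype test and of their difference, up to 3 per family and direction between WT populations, and 18 fixed members; genes named outside this rule (among them Sema5a, the members DESeq2 called and the partner examples) were picked after their values were seen. All library pairs differed beyond counting noise (smallest chi-square per degree of freedom 25.5 over 66 pairs).

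The labels do not say what replicate numbers mark. Same-numbered deviations correlated in luminal cells (0.56, 0.115 and 0.418 over 9330 genes), between WT populations (0.291, 0.168 and 0.38) and between MMTVRANK populations (0.258, 0.151 and 0.114), and were taken as paired there, but not in basal cells (0.405, -0.0467 and 0.16). The reported tests nevertheless used group means only, without pairing, and the fit with the replicate number as a block is given as an alternative. Alternatives were RLE and upper quartile scaling, no low count filter, DESeq2 1.42.0, limma-voom 3.58.1, the replicate block, both WT replicate 2 libraries left out, only the 6 libraries compared, and each library left out. Promoters are from RefSeq.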

Additional observations from a re-analysis of the deposited data

How the results depend on the processing

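Between luminal and basal cells the counts of members called stayed within 1.5 times of the reported ones under all alternatives, in both genotypes. With both WT replicate 2 libraries left out, 42 members were called between WT populations, against 46 with them. Between MMTVRANK populations 37 were called, against 38 with them. Between MMTVRANK and WT luminal cells the 1 called member became 2 with RLE scaling, 16 with no low count filter, 13 with DESeq2, 0 with limma-voom, 2 with the replicate block, 0 with both WT replicate 2 libraries left out and 0 with only the 6 libraries compared; leaving out 1 library at a time gave 0 to 3. Between basal cells no low count filter gave 1. For the difference of the genotype effects it gave 9, and DESeq2 gave 1. The causes were not tested. In the comparisons for which named members were followed, the replicate block changed no call other than that of Ephb6 in luminal cells. The comparison between MMTVRANK populations was not among them, and there the block called 40 members against 38 without it.

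Of 1234 values of named genes under the alternatives, 1178 kept direction and side of the threshold, 26 passed it, 22 lost it and 8 changed sign, each of these 8 a value that was not called. With 1 library left out at a time, Plxnb1 between WT populations ranged from -0.53 to 0.023 (positive without WT luminal 1). In luminal cells between genotypes the ranges were -0.077 to 0.31 for Ephb4, -0.45 to 0.86 for Sema7a, -0.090 to 0.87 for Plxnb1, -0.035 to 0.55 for Unc5b (each negative without MMTVRANK luminal 3), -0.092 to 0.17 for Robo1 (negative without MMTVRANK luminal 1) and -2.93 to 0.13 for Slit3 (positive without WT luminal 3). Sema7a was also negative without WT luminal 1 (-0.16). DESeq2 gave no adjusted p for Sema3c. With 3 libraries a group and a common biological coefficient of variation of 0.45, low members such as Slit1 could not be resolved.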
